A study of Mus musculus with 12 samples.

Results

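A set of 10 Jumonji-domain histone lysine demethylases was followed in the transcriptomes of mouse NIH3T3 fibroblasts and of ΔN-VEGF cells derived from them: Kdm2a, Kdm2b, Kdm3a, Kdm3b, Kdm4a, Kdm4b, Kdm4c, Kdm5b, Kdm6b and Kdm7a. They were taken by gene name from the table of raw counts, where they make up 10 of 54446 genes. NIH3T3 is an immortalized line of embryonic mouse fibroblasts. In ΔN-VEGF cells, Cas9 and guide RNAs had removed from both alleles the coding sequence of N-VEGF, the amino-terminal fragment cut from a long VEGF isoform that is made under hypoxia. Single clones were picked, VCre recombinase was then used to take out the reporter cassette, and cells without fluorescence were sorted, and which clone was sequenced is not given in the sources used here. Each line was kept for 16 h in normoxia (95% air, 5% CO2) or in a chamber below 0.2% oxygen, with 3 samples in each of the 4 groups and 12 in all. The deleted sequence is a small part of a larger gene, so a count over that gene does not check the deletion.

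Jumonji-domain demethylases remove methyl groups from lysines of histone tails in a reaction that consumes molecular oxygen and alpha-ketoglutarate and needs ferrous iron. The activity of several of them falls when oxygen is scarce, and transcription of some, Kdm3a and Kdm4b among them, is known to be driven by hypoxia-inducible factors. Their substrates differ: Kdm2a and Kdm2b act on methylated H3K36, Kdm3a and Kdm3b on H3K9, the Kdm4 enzymes on trimethylated H3K9 and H3K36, Kdm5b on H3K4, Kdm6b on H3K27, and Kdm7a on H3K9 and H3K27. Messenger RNA was measured here, and neither enzyme activity nor histone methylation.

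Total counts on genes ranged from 30519052 to 43056690 per sample, and the lowest count of any member in any sample was 159 (Kdm7a). Levels are given in CPM, counts divided by library size after TMM scaling, which evens out differences in composition between libraries. All 7 fibroblast markers were detected, with a summed level of 10633 to 27898 CPM per sample, against at most 2.42 CPM for 4 epithelial and 6.68 CPM for 4 leukocyte markers. The 3 endothelial markers summed to 1.81 to 4.23 CPM in normoxia. In hypoxia they summed to 5.91 to 8.05 CPM in wild-type and 20.3 to 25.1 CPM in ΔN-VEGF cells. Cdh5 made up most of the sum in each group. Its mean in ΔN-VEGF hypoxia was 22.2 CPM, where Pecam1 stood at 0.596 and Tek at 0.262 CPM. The part of these markers in the results was not tested. In these bulk samples fewer expressing cells and less RNA per cell cannot be told apart. A list of 8 hypoxia targets rose as a whole in both lines (8 of 8 called in each, where 18.2% of all genes tested rose in the wild type and 26.9% in the ΔN-VEGF line).

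One library stood apart. Across genes, replicate 2 of wild-type normoxia correlated at 0.956 and 0.957 with its group's other samples, which correlated at 0.996 with each other (Pearson, log2 CPM). The members did not deviate together in it. Kdm5b stood at 20.1% and Kdm7a at 19.9% of the mean of replicates 1 and 3, Kdm6b at 46.6%, Kdm4a at 68.0%, Kdm4c at 71.8%, Kdm4b at 78.7% and Kdm3b at 83.5%. Kdm2a stood at 102%, Kdm3a at 118% and Kdm2b at 127%. In ΔN-VEGF normoxia, replicate 2 also correlated less well with the other samples (0.986), with members between 74.6% (Kdm5b) and 105% (Kdm2a and Kdm2b) of the mean of replicates 1 and 3. For results that change most with the first of these libraries, values without it are given too.

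**Figure D1:**
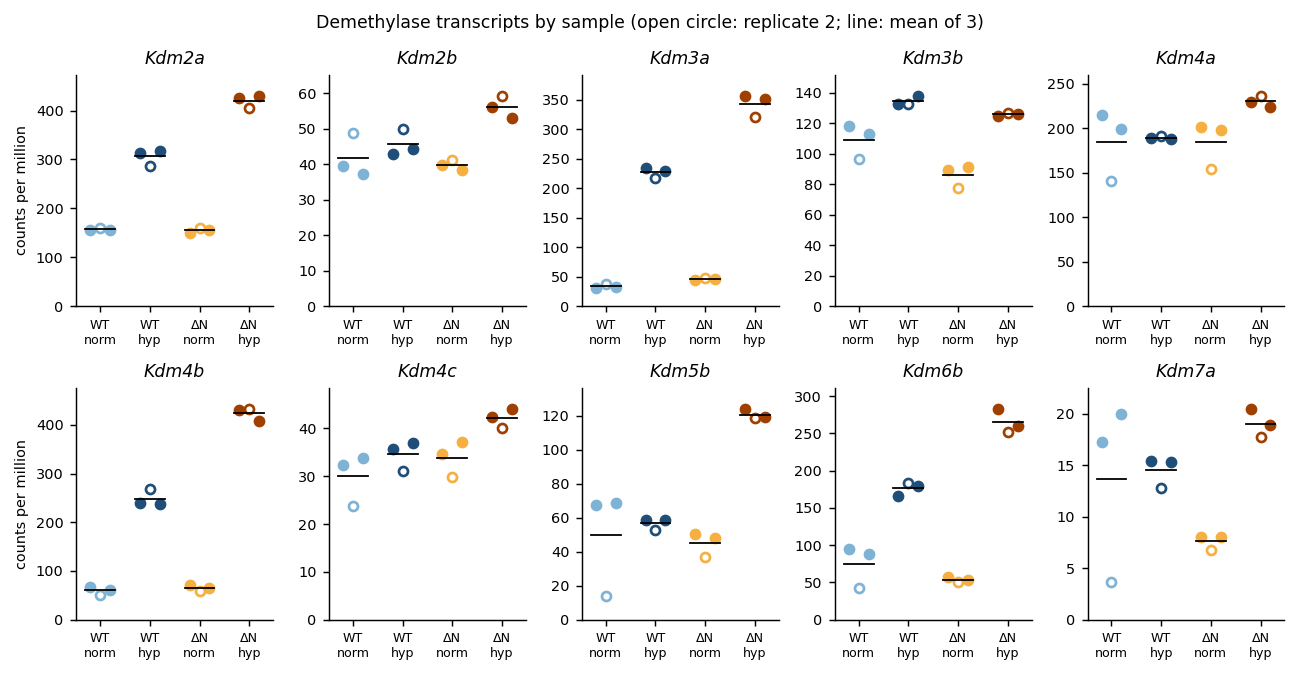
Levels (CPM) of the 10 demethylases in each of the 12 samples, on linear axes from 0; circles are samples, open circles mark replicate 2 of each group, and lines are group means (n = 3). Kdm3a and Kdm4b rise several-fold in hypoxia in both lines, while the open circle of wild-type (WT) normoxia lies far below its group for Kdm5b and Kdm7a.

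Sequences before the start sites were available for 6 of the 10 members (RefSeq, GRCm38.p6), and 250 bases upstream of 4 of them are shown because these members span the range of responses described next, from Kdm3a, which rose most, to Kdm4a, which passed no test with all 12 samples. Capitals mark the core of the hypoxia response element, searched on both strands as ACGTG and GCGTG.
Kdm3a, chr6:71632918-71633167, minus strand, the most upstream of 3 starts: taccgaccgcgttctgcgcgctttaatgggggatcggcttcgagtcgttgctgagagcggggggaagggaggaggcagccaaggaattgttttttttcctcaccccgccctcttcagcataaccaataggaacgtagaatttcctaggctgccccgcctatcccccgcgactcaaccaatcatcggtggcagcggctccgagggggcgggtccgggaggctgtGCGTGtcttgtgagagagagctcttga
Kdm5b, chr1:134559928-134560177, plus strand: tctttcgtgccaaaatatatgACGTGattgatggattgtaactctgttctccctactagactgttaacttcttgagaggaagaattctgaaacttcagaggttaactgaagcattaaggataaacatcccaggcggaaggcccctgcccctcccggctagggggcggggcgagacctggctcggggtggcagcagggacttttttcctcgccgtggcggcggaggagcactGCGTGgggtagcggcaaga
Kdm7a, chr6:39206774-39207023, minus strand: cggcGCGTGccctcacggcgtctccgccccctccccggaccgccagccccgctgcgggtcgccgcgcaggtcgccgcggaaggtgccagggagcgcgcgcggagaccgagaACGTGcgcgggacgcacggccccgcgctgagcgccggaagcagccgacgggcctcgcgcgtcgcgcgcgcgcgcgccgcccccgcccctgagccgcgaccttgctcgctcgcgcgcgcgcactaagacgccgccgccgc
Kdm4a, chr4:118180044-118180293, minus strand: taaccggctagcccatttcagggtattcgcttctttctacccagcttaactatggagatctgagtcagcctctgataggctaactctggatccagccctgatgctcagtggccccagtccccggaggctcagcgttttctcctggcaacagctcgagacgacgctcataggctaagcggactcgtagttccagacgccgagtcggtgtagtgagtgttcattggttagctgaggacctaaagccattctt
The Kdm3a window held 1 core, which began 27 bases before the start, and the windows of its other starts held 0. The Kdm5b window held 2, beginning 229 and 19 bases before it, and the Kdm7a window held 2, at 246 and 139 bases. None was found in the Kdm4a window. Of 12 windows of the 6 members (some genes have several starts, and windows may overlap), 8 held a core, as did 38.6% of 32851 windows over all genes (ACGTG in 16.6%, GCGTG in 28.2%). Kdm2b and Kdm4c were the other members with a core, and a palindromic CACGTG counts once on each strand. Kdm4c also passed no test with all 12 samples, yet the window of the more downstream of its 2 starts held 6, the most of any window. Its other window held 0. Such a match is a description of letters and not a binding site.

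The first comparison asked which demethylase transcripts changed in wild-type cells after 16 h of hypoxia. Of the 10 members, 5 rose (Kdm3a, Kdm4b, Kdm6b, Kdm2a and Kdm3b), 5 passed no test and 0 fell (0 also at an unadjusted p below 0.05 and by DESeq2), where 18.2% of all 14724 genes tested rose and 18.3% fell (edgeR's quasi-likelihood test, Benjamini-Hochberg adjusted p below 0.05, written below as edgeR adjusted p). Of the 5, 3 rose at least 2-fold, against 9.17% of all genes. The median log2 fold change was 0.25 for the members and -0.07 for all genes. The members' median was 0.41 without replicate 1 and 0.48 without replicate 3 of wild-type normoxia, and 0.01 when scaled to total counts, where 12.8% of all genes rose and 32.7% fell. In 5 members every hypoxia sample lay above every normoxia sample, as in 23.2% of all genes.

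The same comparison in ΔN-VEGF cells gave 8 members that rose, 2 without a call (Kdm4a and Kdm4c) and 0 that fell (0 also at an unadjusted p below 0.05 and by DESeq2), where 26.9% of all genes rose and 26.4% fell. Of the 8, 6 rose at least 2-fold, against 14.6% of genes. Scaled to total counts, 4 members rose, where 15.3% of all genes rose and 44.5% fell. With TMM the median was 1.37 for the members and -0.01 for all genes, and in all 10 members every hypoxia sample lay above every normoxia sample, as in 34.9% of genes. The 5 members called in wild-type cells were among the 8. Kdm5b, Kdm7a and Kdm2b made up the rest.

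**Figure D2:**
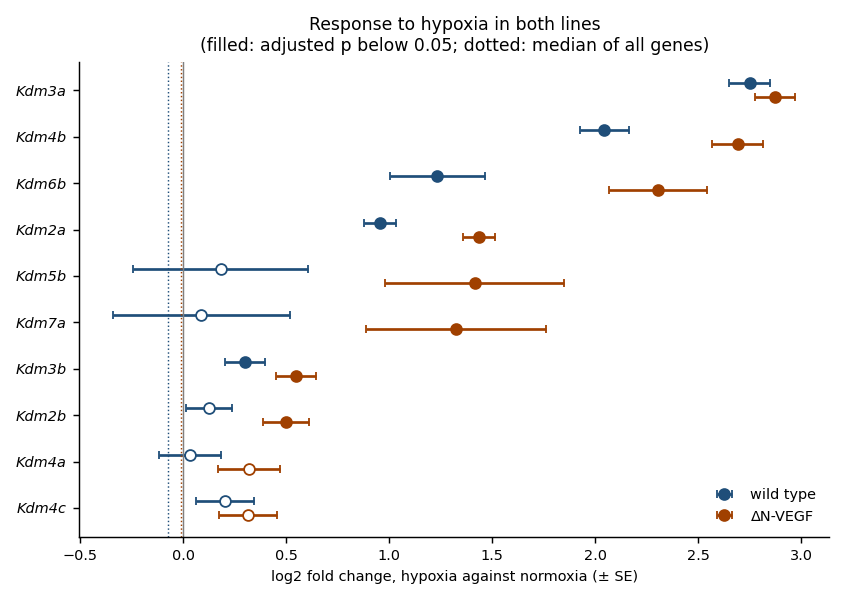
Log2 fold change of each demethylase in hypoxia against normoxia, with its standard error from edgeR, in wild-type and ΔN-VEGF cells (3 against 3 samples each). Filled circles passed an adjusted p below 0.05 and dotted lines mark the median of all genes (-0.07 and -0.01). Kdm3a changed by 2.75 and 2.87, whereas Kdm4a and Kdm4c stood at 0.32 or less without a call.

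Kdm3a and Kdm3b are the H3K9 demethylases that remove mono- and dimethyl marks. Kdm3a (chr6:71588972-71632990, GRCm38) stood at 30.9, 37.7 and 32.8 CPM in wild-type normoxia and at 234, 218 and 229 CPM in hypoxia, and at 45.5, 47.6 and 47.2 CPM in ΔN-VEGF normoxia and 357, 320 and 351 CPM in hypoxia. The 4 groups did not overlap, and both hypoxic groups lay several-fold above both normoxic ones. The log2 fold change was 2.75 ± 0.10 (SE) in wild-type cells (edgeR adjusted p 1e-08) and 2.87 ± 0.10 in ΔN-VEGF cells (edgeR adjusted p 4.7e-09), the largest rise of any member in each line. Kdm3b (chr18:34777047-34838660) moved far less. Its wild-type samples read 118, 96.6 and 113 CPM in normoxia and 132, 133 and 138 CPM in hypoxia, and its ΔN-VEGF samples 89.3, 77.4 and 91.1 CPM and 125, 127 and 126 CPM. Hypoxia lay above normoxia in each line without overlap. The log2 rise in wild-type cells was 0.30 ± 0.10 (edgeR adjusted p 0.031) and 0.55 ± 0.10 in ΔN-VEGF cells (edgeR adjusted p 0.00067). The call on Kdm3b in wild-type cells held in 14 of 20 alternative fits. Among others, it was lost when any of the 3 wild-type hypoxia samples was left out (0.28 to 0.31, edgeR adjusted p 0.059 to 0.091), and in a fit to the 6 wild-type samples (0.27, edgeR adjusted p 0.16). Scaled to total counts, Kdm3b was called in neither line (0.06 and 0.14, edgeR adjusted p 0.72 and 0.38). A gene on the opposite strand, Gm26538, shares 24.6% of the exon bases of Kdm3b and is listed at 0 in every sample. How reads from these shared bases were counted is not given in the sources used here. If they were dropped, the level of Kdm3b is understated.

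Kdm4a, Kdm4b and Kdm4c remove trimethyl marks from H3K9 and H3K36. Kdm4b (chr17:56326062-56402870) stood at 67.9, 51.0 and 61.7 CPM in wild-type normoxia and at 241, 268 and 237 CPM in wild-type hypoxia. Among ΔN-VEGF samples it stood at 71.9, 59.0 and 66.0 CPM in normoxia and at 431, 433 and 408 CPM in hypoxia. The normoxic groups of the 2 lines overlapped and the hypoxic groups did not, with ΔN-VEGF cells higher. The log2 fold change was 2.04 ± 0.12 in wild-type cells (edgeR adjusted p 4.5e-07) and 2.69 ± 0.12 in ΔN-VEGF cells (edgeR adjusted p 4e-08). Kdm4a (chr4:118136957-118180043) read 215, 141 and 199 CPM in wild-type normoxia, 188, 192 and 188 CPM in wild-type hypoxia, 201, 154 and 198 CPM in ΔN-VEGF normoxia, and 229, 237 and 224 CPM in ΔN-VEGF hypoxia. Wild-type hypoxia lay inside the range of wild-type normoxia. The change was 0.03 ± 0.15 in wild-type cells (edgeR adjusted p 0.88) and 0.32 ± 0.15 in ΔN-VEGF cells (edgeR adjusted p 0.092). Kdm4c (chr4:74242497-74405860) ranged from 23.8 to 33.8 CPM in wild-type normoxia and from 31.2 to 36.9 CPM in wild-type hypoxia, and from 29.8 to 37.2 CPM and 40.1 to 44.1 CPM in ΔN-VEGF cells. Its changes of 0.20 ± 0.14 and 0.32 ± 0.14 passed no test (edgeR adjusted p 0.28 and 0.078), and the first was 0.07 without replicate 2 of wild-type normoxia. Kdm4a and Kdm4c were both called in ΔN-VEGF cells without replicate 2 of wild-type normoxia (0.31 each, edgeR adjusted p 0.007 and 0.009), both in a fit to the 6 ΔN-VEGF samples (0.29 each), and Kdm4c also with replicate number as a block over 12 samples (edgeR adjusted p 0.015).

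Kdm2a and Kdm2b demethylate H3K36 and bind unmethylated CpG islands through a zinc finger, and Kdm2b brings a Polycomb complex there. Kdm2a (chr19:4314419-4398285) varied little in normoxia, at 157, 160 and 157 CPM in wild-type and 150, 161 and 155 CPM in ΔN-VEGF cells. In hypoxia it stood at 314, 287 and 318 CPM in wild-type and at 425, 405 and 430 CPM in ΔN-VEGF cells. The 2 lines overlapped in normoxia and were apart in hypoxia. The rise was 0.96 ± 0.08 in wild-type cells (edgeR adjusted p 4.1e-06) and 1.43 ± 0.08 in ΔN-VEGF cells (edgeR adjusted p 1.1e-07). Kdm2b (chr5:122870665-122989823) read 39.5, 48.9 and 37.3 CPM in wild-type normoxia, 42.9, 49.9 and 44.2 CPM in wild-type hypoxia, 39.7, 41.1 and 38.5 CPM in ΔN-VEGF normoxia, and 56.2, 59.4 and 53.2 CPM in ΔN-VEGF hypoxia. Groups overlapped in wild-type but not in ΔN-VEGF cells. The change was 0.12 ± 0.11 in wild-type cells (edgeR adjusted p 0.41), or 0.26 without replicate 2 of wild-type normoxia (edgeR adjusted p 0.021), and 0.50 ± 0.11 in ΔN-VEGF cells (edgeR adjusted p 0.0032). Scaled to total counts, the values for Kdm2b were -0.09 (wild type) and 0.10 (ΔN-VEGF), neither of them called. Kdm2b shares 5.77% of its exon bases with Rnf34 on the opposite strand (659 to 1133 counts per sample), and how reads from shared bases were assigned by strand is not given in the sources used here.

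Kdm6b, also called JMJD3, removes H3K27 di- and trimethylation and is known as an inducible enzyme in immune and stress responses. It is on chr11:69398508-69413675. It read 94.6, 42.5 and 88.0 CPM in wild-type normoxia and 167, 184 and 179 CPM in hypoxia, against 56.9, 50.4 and 53.7 CPM in ΔN-VEGF normoxia and 283, 252 and 259 CPM in hypoxia. All hypoxia samples lay above all normoxia samples, and within normoxia the low wild-type sample lay below every ΔN-VEGF sample while its group's other samples lay above them. The rise was 1.23 ± 0.23 in wild-type cells (edgeR adjusted p 0.0016), or 0.96 ± 0.08 without that sample (edgeR adjusted p 7.6e-07), and 2.30 ± 0.24 in ΔN-VEGF cells (edgeR adjusted p 1.5e-05).

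Kdm5b removes methyl groups from H3K4, a mark of active promoters, and Kdm7a removes mono- and dimethyl marks from H3K9 and H3K27. Kdm5b (chr1:134560171-134635285) read 67.4, 13.7 and 68.9 CPM in wild-type normoxia and 58.8, 53.1 and 58.4 CPM in wild-type hypoxia. The ΔN-VEGF samples read 50.6, 36.9 and 48.2 CPM in normoxia and 124, 119 and 119 CPM in hypoxia. Replicates 1 and 3 of wild-type normoxia thus lay above wild-type hypoxia and replicate 2 below it, while in ΔN-VEGF cells every hypoxia sample lay above every normoxia sample. The change was 0.18 ± 0.43 in wild-type cells (edgeR adjusted p 0.76), with the direction turning to -0.26 ± 0.11 without replicate 2 (edgeR adjusted p 0.064), and 1.41 ± 0.43 in ΔN-VEGF cells (edgeR adjusted p 0.017). Without replicate 2 of ΔN-VEGF normoxia the latter was 1.28 and lost its call (edgeR adjusted p 0.063), as it did with total counts (1.01, edgeR adjusted p 0.084).

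Kdm7a (chr6:39136623-39206789) followed the same course at a lower level. It read 17.2, 3.69 and 19.9 CPM in wild-type normoxia, 15.4, 12.8 and 15.3 CPM in wild-type hypoxia, 8.03, 6.80 and 7.99 CPM in ΔN-VEGF normoxia and 20.5, 17.7 and 18.9 CPM in ΔN-VEGF hypoxia. Only replicate 2 of wild-type normoxia lay below wild-type hypoxia, and the ΔN-VEGF groups were apart. The change was 0.09 ± 0.43 in wild-type cells (edgeR adjusted p 0.89), and without replicate 2 Kdm7a fell by 0.35 (SE 0.12, edgeR adjusted p 0.022). In ΔN-VEGF cells it rose by 1.32 ± 0.44 (edgeR adjusted p 0.025). That call was lost without any 1 of replicates 1, 2 and 3 of ΔN-VEGF normoxia or replicates 1 and 3 of ΔN-VEGF hypoxia (1.24 to 1.36, edgeR adjusted p 0.054 to 0.075), and with total counts (0.92, edgeR adjusted p 0.12).

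The second question was whether the lines differed in either condition. In normoxia 1 of 10 members was called, where 1.39% of all genes were higher and 2.97% lower in ΔN-VEGF cells. Kdm3a was higher there by 0.47 ± 0.09 on the log2 scale (edgeR adjusted p 0.018, higher in 3 of 3 samples). The call was lost without replicate 1 or 3 of either group (0.41 to 0.50, edgeR adjusted p 0.067 to 0.083). In normoxia the samples numbered 2 of the 2 lines deviated together from their group means (correlation 0.498). Replicates 1 and 3 correlated across numbers (0.358 and 0.347) about as within them (0.378 and 0.355). A fit to the 6 normoxia samples with replicate number as a block called 0 members (Kdm3a 0.48, edgeR adjusted p 0.19), whereas the block over all 12 samples kept 1. In those 6 samples 1 gene of all tested passed with the block. Without replicate 2 of wild-type normoxia 5 members differed, where 48.9% of all genes did. Kdm3a was then higher in ΔN-VEGF cells by 0.57, and the lower ones stood at -1.28 (Kdm7a), -0.75 (Kdm6b), -0.58 (Kdm5b) and -0.42 (Kdm3b) (edgeR adjusted p 6.4e-06 to 0.00092 over the 5).

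In hypoxia 3 of 10 members were called and all were higher in ΔN-VEGF cells, where 10.8% of all genes were higher and 9.36% lower. They were Kdm4b by 0.77 ± 0.12 (edgeR adjusted p 0.0016), Kdm3a by 0.59 ± 0.09 (edgeR adjusted p 0.0017) and Kdm2a by 0.46 ± 0.08 (edgeR adjusted p 0.0024). Scaled to total counts, Kdm3a was higher by 0.37 and Kdm2a lost its call at 0.24 (edgeR adjusted p 0.063), where 4.57% of all genes were higher and 22.2% lower. The median was 0.42 for the members and -0.01 for all genes. In 9 members every ΔN-VEGF sample lay above every wild-type sample, as in 29.7% of all genes, and only Kdm3b was lower (-0.10 ± 0.10, edgeR adjusted p 0.53). Kdm5b differed most, by 1.09 ± 0.43 without a call (edgeR adjusted p 0.10). The spread in these tests was estimated over all 12 samples. A fit to the 6 hypoxia samples alone called 9 members, the exception being Kdm3b, where 27.9% of all genes were higher and 29.1% lower, and gave Kdm5b 1.08 (edgeR adjusted p 2e-10). Leaving out replicate 2 of wild-type normoxia from the joint fit likewise gave 9, where 21.2% of all genes were higher and 21.2% lower.

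The third question was whether hypoxia acted differently in the lines, tested as the interaction of line and oxygen. It was called for 1 of 10 members, Kdm2a, where 2.21% of all genes had a larger and 1.15% a smaller log2 change in ΔN-VEGF cells. The interaction was 0.48 ± 0.11 for Kdm2a (edgeR adjusted p 0.039). That call was lost without any single library other than replicate 2 of either normoxia group (0.42 to 0.50, edgeR adjusted p 0.087 to 0.13), and also with total counts (0.30, edgeR adjusted p 0.15). The interaction was positive in all 10 members with a median of 0.43, against 0.03 for all genes, though with total counts Kdm3a (-0.06) and Kdm4c (-0.05) were negative. Kdm4b (0.65 ± 0.16, edgeR adjusted p 0.058) and Kdm6b (1.07 ± 0.32, edgeR adjusted p 0.091) missed the threshold. Kdm5b (1.23 ± 0.60, edgeR adjusted p 0.27) and Kdm7a (1.23 ± 0.61, edgeR adjusted p 0.28) had the largest values and the largest errors.

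Without replicate 2 of wild-type normoxia the interaction was called for 7 members, all positive, where 21.4% of all genes were called higher and 23.0% lower. Kdm5b then stood at 1.66 ± 0.15 (edgeR adjusted p 3.2e-06), Kdm7a at 1.66 ± 0.16 (edgeR adjusted p 5.6e-06), Kdm6b at 1.34 ± 0.11 (edgeR adjusted p 1.5e-06) and Kdm4b at 0.74 ± 0.12 (edgeR adjusted p 0.00035). Kdm2a, Kdm4a and Kdm3b were between 0.32 and 0.45 (edgeR adjusted p 0.0017 to 0.023). Kdm3a, the member with the largest response in each line, stood at 0.02 ± 0.10 (edgeR adjusted p 0.86). DESeq2's Wald test on all 12 samples called 3 members, where it called 10.3% of the genes to which it gave an adjusted p.

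**Figure D3:**
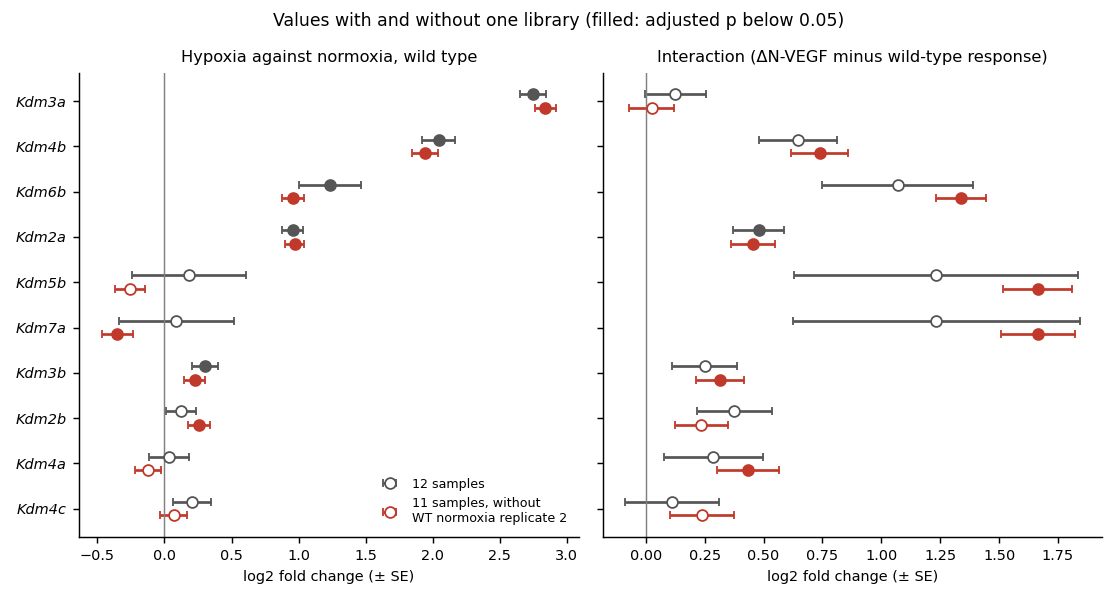
Log2 values with standard errors from edgeR for all 12 samples (grey) and without replicate 2 of wild-type normoxia (red), for the wild-type response to hypoxia on the left and the interaction of line and oxygen on the right. Filled circles passed an adjusted p below 0.05; called members go from 5 to 7 on the left, where Kdm7a turns to -0.35, and from 1 to 7 on the right, while the share called among all genes goes from 36.5% to 54.0% and from 3.36% to 44.4%.

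To compare levels between genes, CPM were divided by the length of all annotated exons of the gene in kilobases (GENCODE vM21), a scale that takes every annotated exon as used. In wild-type normoxia Kdm4a was the most abundant of the 10 at 32.0 ± 6.75 (SD, n = 3) CPM per kilobase. Kdm4b (12.3 ± 1.75), Kdm2a (10.9 ± 0.128) and Kdm6b (10.8 ± 4.08) followed without being separable by their ranges, as did Kdm3b (7.75 ± 0.799) after Kdm6b. Kdm4c, Kdm3a, Kdm2b and Kdm5b lay between 5.16 and 3.02 with neighbours overlapping, and Kdm7a was lowest at 1.35 ± 0.865, overlapping Kdm5b. In ΔN-VEGF normoxia the order of the means was the same, and only Kdm3b, Kdm4c and Kdm3a overlapped as neighbours. The wild-type order rests on replicate 2, since in replicates 1 and 3 Kdm6b (13.6 and 12.6) lay above Kdm2a (10.9 and 10.8), and Kdm5b (4.07 and 4.16) above Kdm3a (3.75 and 3.98) and Kdm2b (3.63 and 3.43).

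Hypoxia changed that order. In wild-type hypoxia Kdm4b led at 50.8 ± 3.40, then Kdm4a (32.7 ± 0.339), Kdm3a (27.6 ± 0.988), Kdm6b (25.4 ± 1.27) and Kdm2a (21.2 ± 1.18), and none of the 9 neighbouring pairs overlapped. In ΔN-VEGF hypoxia Kdm4b stood at 86.6 ± 2.85, ahead of Kdm3a (41.7 ± 2.40), Kdm4a (39.8 ± 1.07) and Kdm6b (38.1 ± 2.32), which overlapped as neighbours. Kdm5b (7.29 ± 0.183) and Kdm4c (7.25 ± 0.341) also overlapped, and Kdm7a remained last at 1.89 ± 0.136. Summed over the 10 members, the level per kilobase was 91.2 ± 15.8 in wild-type normoxia, 182 ± 2.03 in wild-type hypoxia, 88.5 ± 7.24 in ΔN-VEGF normoxia and 266 ± 5.51 in ΔN-VEGF hypoxia. Kdm4a made up 34.9% ± 1.49 of this sum in wild-type normoxia and 18.0% ± 0.0987 in hypoxia, and Kdm4b 13.6% ± 0.682 and 27.8% ± 1.58. Kdm3a went from 4.66% ± 1.40 to 15.2% ± 0.708 (wild type) and from 6.46% ± 0.675 to 15.7% ± 0.762 (ΔN-VEGF). These shares sum to 100%, so the share of Kdm4a is lower in hypoxia although its own level in wild-type cells was 32.0 and 32.7.

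**Figure D4:**
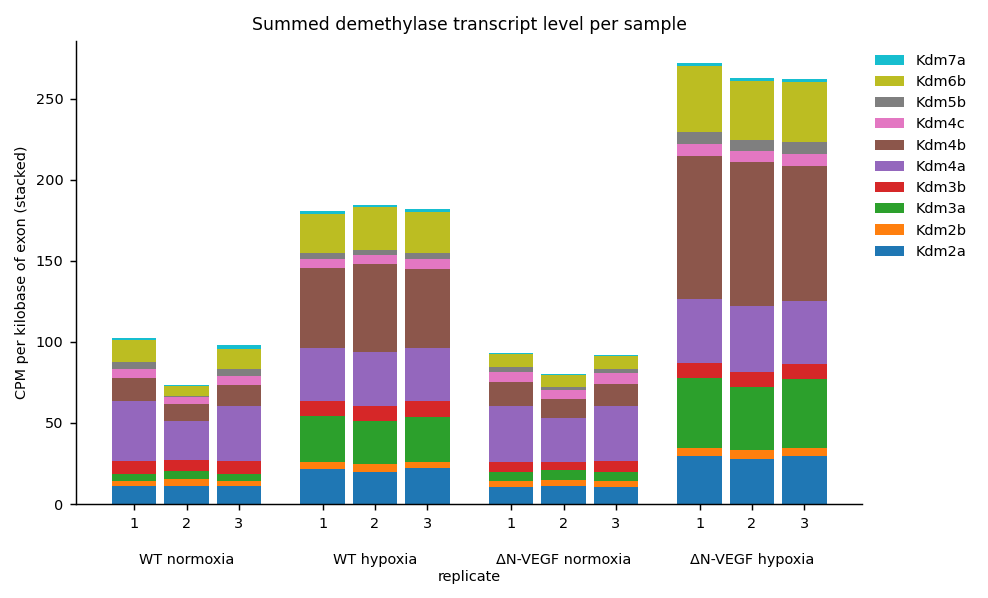
Level of the 10 demethylases per sample, in CPM per kilobase of exon, stacked from 0 for replicates 1 to 3 of each group. The sum lies between 73.2 and 103 in the normoxia samples, between 180 and 184 in wild-type hypoxia and between 262 and 272 in ΔN-VEGF hypoxia, with Kdm4b, Kdm3a, Kdm6b and Kdm2a accounting for most of the added height.

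Ratios of paralogs within a sample do not depend on scaling between samples. The log2 ratio of counts of Kdm3a to Kdm3b was -1.69 ± 0.30 (SD, n = 3) in wild-type normoxia and 0.76 ± 0.06 in hypoxia, and -0.88 ± 0.15 and 1.44 ± 0.09 in ΔN-VEGF cells. It was 2.38 higher in hypoxia, averaged over the lines (exact two-sided permutation of the oxygen labels within each line, p 0.005, adjusted 0.00667 over 4 ratios), and 0.005 is the smallest p that 400 arrangements can give. The log2 ratio of Kdm4b to Kdm4a rose by 2.18 (exact permutation, p 0.005, adjusted 0.00667), from -1.60 ± 0.12 to 0.39 ± 0.08 (wild type) and from -1.48 ± 0.10 to 0.88 ± 0.03 (ΔN-VEGF). The log2 ratio of Kdm2b to Kdm2a fell by 0.88 (exact permutation, p 0.005, adjusted 0.00667), from -1.92 ± 0.19 to -2.75 ± 0.19 and from -1.97 ± 0.05 to -2.90 ± 0.12. For Kdm4c to Kdm4a the difference was 0.08 and did not pass (exact permutation, p 0.29, adjusted 0.29). Within each of these 3 gene families one member thus moved away from another in hypoxia in both lines, while Kdm4c and Kdm4a kept ratios between -2.73 and -2.35 in all samples.

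**Figure D5:**
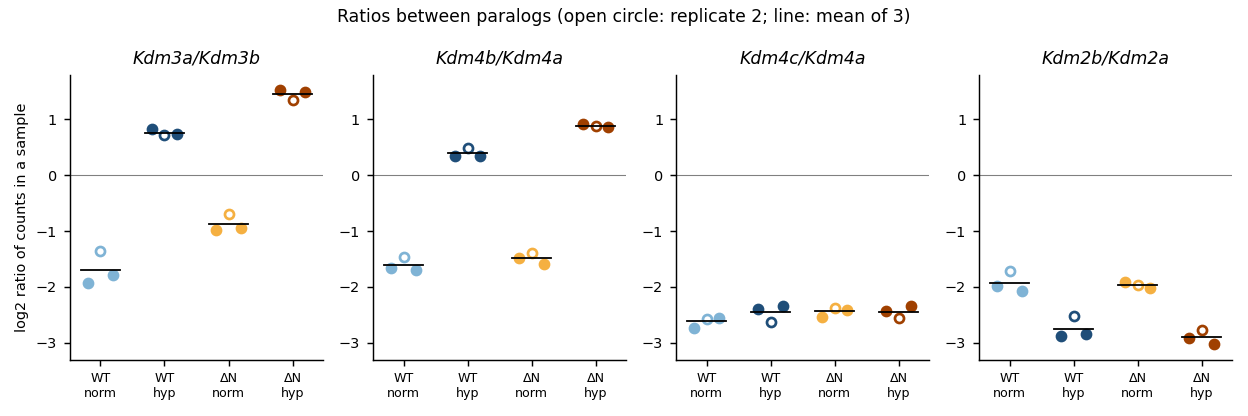
Log2 ratio of raw counts of paralog pairs in each sample, with circles as samples, open circles as replicate 2 and lines as group means (n = 3). Kdm3a/Kdm3b and Kdm4b/Kdm4a go from below 0 in every normoxia sample to above 0 in every hypoxia sample, Kdm2b/Kdm2a goes down, and Kdm4c/Kdm4a overlaps between groups.

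Of 21 other Jumonji-domain genes 18 were tested. Hypoxia raised 5 and lowered 3 of them in wild-type cells, against 8 and 4 in ΔN-VEGF cells, with medians of 0.08 and 0.15. The shares of all genes were 18.2% raised and 18.3% lowered in the wild type, and 26.9% and 26.4% in the ΔN-VEGF line. Those raised in wild-type cells were Jmjd6, Jarid2, Kdm5a, Kdm5c and Hr, and those lowered were Phf2, Riox1 and Hspbap1, joined by Riox2 in ΔN-VEGF cells. Without replicate 2 of wild-type normoxia 7 were raised and 2 lowered in wild-type cells, where 27.1% of all genes were raised and 26.9% lowered. Riox1 then stood at -0.30 and was no longer called (edgeR adjusted p 0.053). Among genes that averaged 10 CPM or more, Jmjd6, a Jumonji protein with lysyl hydroxylase activity, changed most at 2.37 ± 0.31 (edgeR adjusted p 0.00015) and 2.85 ± 0.31 (edgeR adjusted p 2.4e-05). Hr, at a mean of 0.285 to 5.73 CPM in the 4 groups, changed more in each line (2.68 ± 0.22 and 3.36 ± 0.24, edgeR adjusted p 4.4e-06 and 1e-06). Kdm5a, a paralog of Kdm5b that also acts on H3K4, rose by 1.67 ± 0.22 in ΔN-VEGF cells (edgeR adjusted p 8.1e-05), and Jarid2, a family member without demethylase activity that belongs to a Polycomb complex, rose by 0.86 ± 0.20 in wild-type cells (edgeR adjusted p 0.0064). Between the lines, edgeR with all 12 samples called 1 gene of the list in normoxia, Hr, which was lower in ΔN-VEGF cells, and DESeq2 called 1 higher and 1 lower. In the fit without replicate 2 of wild-type normoxia 7 were higher and 5 lower, where 25.7% of all genes were higher and 23.2% lower. In hypoxia Kdm5a, Kdm5c, Kdm5d and Phf8 were higher in ΔN-VEGF cells and Hr was lower. Kdm5d had few counts, 8 to 14 in wild-type and 17 to 22 in ΔN-VEGF hypoxia (means of 0.288 and 0.585 CPM). With total counts 1 of the list was higher (Kdm5c) and 3 were lower (Hr, Jmjd1c and Tyw5). The fit without replicate 2 of wild-type normoxia gave 7 higher and 3 lower. Of all genes 10.8% were higher and 9.36% lower with TMM and all samples, 4.57% and 22.2% with total counts, and 21.2% and 21.2% without that library. The differences were 0.78 ± 0.21 for Kdm5a (edgeR adjusted p 0.026), 0.52 ± 0.17 for Phf8, a demethylase of H3K9 and H4K20 (edgeR adjusted p 0.0499), and 0.51 ± 0.09 for Kdm5c, an H3K4 demethylase (edgeR adjusted p 0.0028). For the interaction edgeR called 0 of the 18 (3 at an unadjusted p below 0.05, 1 by DESeq2, and 9 by edgeR without replicate 2 of wild-type normoxia). Of all genes edgeR called 3.36%, and 44.4% without that library, and DESeq2 called 10.3% of those to which it gave an adjusted p. Scaled to total counts, hypoxia raised 3 and lowered 4 of the list in the wild type and raised 6 and lowered 9 in the ΔN-VEGF line. With that scaling 12.8% of all genes rose and 32.7% fell in the wild type, and 15.3% and 44.5% in the ΔN-VEGF line.

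Flavin-dependent demethylases need no alpha-ketoglutarate, and of Kdm1a and Kdm1b hypoxia raised Kdm1a in each line, though neither when scaled to total counts. Kdm1b was lower in ΔN-VEGF than in wild-type hypoxia, a call that was lost with RLE size factors. Among the enzymes that write the marks, of 6 H3K9 methyltransferases tested 4 fell in the wild type (Suv39h1, Ehmt1, Ehmt2 and Setdb2) and 6 in the ΔN-VEGF line. Of all genes 18.3% and 26.4% fell. The medians of the 6 were -0.45 and -1.06, and edgeR called 0 higher (0 also at an unadjusted p below 0.05 and 0 by DESeq2). The counts were again 4 and 6 without replicate 2 of wild-type normoxia, where 26.9% and 34.3% of all genes were lower, and 6 and 6 when scaled to total counts, where 32.7% and 44.5% were. With RLE size factors 3 fell in the wild type. Suv39h1, which trimethylates H3K9, fell by 0.91 in the wild type (SE 0.33, edgeR adjusted p 0.0498) and by 1.45 in the ΔN-VEGF line (SE 0.33, edgeR adjusted p 0.0037). Its wild-type value was -0.26 without replicate 2 of wild-type normoxia and not called (edgeR adjusted p 0.097), while Setdb1 at -0.37 was (edgeR adjusted p 0.046).

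The 4 genes for H3K27 methylation were Ezh1, Ezh2 and the non-catalytic partners Eed and Suz12. Of these, Suz12 rose in the wild type, and Suz12 and Ezh1 rose and Ezh2 fell in the ΔN-VEGF line. Ezh2, the catalytic subunit of a Polycomb repressive complex, fell by 1.62 there (SE 0.25, edgeR adjusted p 0.00027) and was lower in ΔN-VEGF than in wild-type hypoxia (-0.84 ± 0.25, edgeR adjusted p 0.035). Of 6 H3K4 methyltransferases Kmt2a, Kmt2b, Kmt2d and Setd1b fell in the wild type and Kmt2c rose in the ΔN-VEGF line, and Kmt2b was higher in ΔN-VEGF than in wild-type hypoxia. Of 5 H3K36 methyltransferases Nsd2 fell in both lines (-0.80 ± 0.28 in the wild type, edgeR adjusted p 0.046). Nsd1, Nsd3 and Ash1l rose in the ΔN-VEGF line, with Nsd1 at means of only 0.516 CPM in normoxia and 1.05 CPM in hypoxia. The wild-type value of Nsd2 was -0.25 and lost its call without replicate 2 of wild-type normoxia (edgeR adjusted p 0.068). Scaled to total counts, hypoxia raised 0 of the 21 genes of the H3K9, H3K27, H3K4 and H3K36 lists in either line. It lowered 14 in the wild type and 13 in the ΔN-VEGF line, against 1 and 6 raised and 9 and 8 lowered with TMM. Of all genes, 12.8% rose and 32.7% fell with total counts in the wild type and 15.3% and 44.5% in the ΔN-VEGF line, against 18.2% and 18.3%, and 26.9% and 26.4%, with TMM. Between the lines in hypoxia total counts gave 0 higher and 6 lower, against 1 and 1, and the fit without replicate 2 of wild-type normoxia gave 7 and 6, where 21.2% of all genes were higher and 21.2% lower. With all 12 samples edgeR called 0 of these 21 genes in normoxia between the lines and 0 for the interaction, where an unadjusted p below 0.05 gave 5 and 7 and DESeq2 2 and 2. Without replicate 2 of wild-type normoxia 14 and 11 were called, where 48.9% and 44.4% of all genes were.

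Over the 12 samples, the genes whose log2 CPM was most like that of each member were named among 8523 genes of at least 10 CPM on average, as a description of samples that share 2 lines and 2 conditions. For Kdm3a they were P4ha1, Prkab2 and Mt1 (Pearson r 0.999 to 0.997), of which P4ha1 is a subunit of collagen prolyl hydroxylase, another oxygen-using enzyme. For Kdm4b they were Mt2, Hk1 and Tsku (0.999 to 0.998), with Mt2 a metallothionein like Mt1 and Hk1 a hexokinase of glycolysis. Kdm2a was nearest to Sipa1l1, Magt1 and Gphn (0.997 each) and Kdm6b to Atg13, Stx5a and Chd5 (0.997 to 0.995). Likeness was lower for Kdm5b (Tcp11l2, Parp4 and Elf1, 0.984 to 0.977), Kdm7a (Fam214a, Fbxl20 and Npc1, 0.984 to 0.979), Kdm3b (Agbl5, Rbm33 and Hinfp, 0.986 to 0.981), Kdm4a (Hspa2, Nynrin and Slit3, 0.975 to 0.967), Kdm4c (Zkscan1, Avl9 and Elf1, 0.971 to 0.960) and Kdm2b (Arf3, Rpl19 and Med26, 0.970 to 0.966). Elf1 was thus named for both Kdm4c and Kdm5b.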

How the data were processed

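RNA was sequenced from 12 samples, 3 per group of line and oxygen. The authors prepared unstranded TruSeq v2 libraries, trimmed 80-base single reads, aligned them to GRCm38.p6 with TopHat2 2.1.0 (Bowtie2 2.2.6) and deposited raw counts per gene from HTSeq 0.6.1, whose strand setting is not given in the sources used here. Groups and replicate numbers came from the labels, and nothing there says that replicates were grown separately, so p-values measure the spread between these samples, which may be technical. No replicates agreed within sampling noise (chi-square per gene at least 2.86).

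Counts were fitted with edgeR 4.0.16 (limma 3.58.1, R 4.3.3): filterByExpr (14724 of 54446 genes, all 10 members), TMM scaling, 1 mean per group over 12 samples, quasi-likelihood F tests and Benjamini-Hochberg adjustment over all genes tested. The members and gene lists were chosen with earlier results of these data known. All members were named; from lists of other Jumonji genes and methyltransferases, at most 4 genes per comparison with the largest log2 change among called genes that averaged 10 CPM or more; and 3 most correlated genes per member. Other genes of the lists were named after their values were seen. Deviations of same-numbered samples from group means correlated at 0.378, 0.498 and 0.355 between the normoxia groups, but replicates 1 and 3 also correlated across numbers (0.347 and 0.358), and at no more than 0.109 in other comparisons, so the numbers were taken to pair normoxia samples only.

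Alternatives were DESeq2 1.42.0 (Wald test, the tool of the authors), RLE size factors, total counts, no filter or a minimum of 10 counts throughout, the samples of a comparison alone, the replicate block, each sample left out, both normoxia samples numbered 2 left out, and a fold of at least 2. The block within 6 samples was added after seeing the data. On simulated data the tests of hypoxia in each line recovered, at the median, the size of the changes put in. Those data held no library that stood apart, and the tests between lines and of the interaction were not simulated.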

Additional observations from a re-analysis of the deposited data

Results flagged for a closer look

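The response of Kdm2a to hypoxia differed between the lines by a test of the difference itself: the interaction of line and oxygen was 0.48 on the log2 scale (edgeR adjusted p 0.039, quasi-likelihood test), with hypoxia samples above normoxia samples in 3 of 3 in each line. The call held in 7 of 19 alternatives. It was lost in 10 of the 12 fits with 1 sample left out, with total counts (0.30, edgeR adjusted p 0.15) and with no filter (0.40, edgeR adjusted p 0.31). No formal outlier test was run in groups of 3 samples.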

How the results depend on the processing

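The counts of members depend most on 1 library. Leaving out each sample of a comparison in turn gave 0 to 1 members lowered by hypoxia in wild-type cells, 0 to 5 differing in normoxia and 0 to 7 with an interaction, the upper ends being reached without replicate 2 of wild-type normoxia. Leaving out a sample of another group changed calls only for that same library, which gave 10 members raised in ΔN-VEGF cells, where 32.8% of all genes were higher, and 9 differing in hypoxia. Without both normoxia samples numbered 2, 3 members were lowered in wild-type cells (Kdm4a -0.12, Kdm5b -0.26, Kdm7a -0.35), 5 differed in normoxia, 9 in hypoxia and 8 had an interaction, where 65.3% of all genes were called in wild-type hypoxia, 53.6% in normoxia, 55.8% in hypoxia and 52.8% for the interaction. Adding a fold of at least 2 left 3 members raised in wild-type cells and 0 in normoxia, hypoxia or interaction. DESeq2 called 2 in normoxia, where it called 8.16% of the genes to which it gave an adjusted p, and 3 interactions. Total counts gave 4 raised in ΔN-VEGF cells and 0 interactions, moving the median of all genes from -0.07 to -0.30 in wild-type and from -0.01 to -0.41 in ΔN-VEGF cells, so modest changes are relative to the scaling. No filter gave 0 interactions. Fits to the samples of a comparison gave 0 in normoxia and 9 in hypoxia, where 0.108% and 57% of all genes were called. With the replicate block these fits gave the same 0 and 9, where 0.00718% and 61.1% of all genes were called. Over 12 samples the block left all 7 counts within 1.5-fold. The cause was not tested.

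Some values changed sign. With total counts, none of them called, these were, in wild-type hypoxia, Kdm2b -0.091, Kdm4a -0.21, Kdm4c -0.038, Kdm5b -0.099 and Kdm7a -0.19, in ΔN-VEGF hypoxia Kdm4a -0.087 and Kdm4c -0.089, and for the interaction Kdm3a -0.059 and Kdm4c -0.051. Between lines in normoxia, Kdm2a was 0.058, Kdm2b 0.0048 and Kdm4a 0.078 with no filter, Kdm4a 0.0025 with DESeq2, Kdm4a 0.0013 with the replicate block, Kdm4a 0.015 and Kdm5b 0.14 with the block in 6 samples, and Kdm2b 0.039 without both samples numbered 2. With 1 sample left out, the normoxia differences ranged from -0.042 to 0.011 for Kdm2a, -0.15 to 0.064 for Kdm2b, -0.15 to 0.12 for Kdm4a and -0.58 to 0.16 for Kdm5b. The wild-type responses ranged from -0.12 to 0.15 for Kdm4a, -0.26 to 0.48 for Kdm5b and -0.35 to 0.47 for Kdm7a. The paralog ratios kept their direction and side of the threshold with each sample left out (2.32 to 2.47 for Kdm3a/Kdm3b, 2.16 to 2.22 for Kdm4b/Kdm4a, 0.05 to 0.12 for Kdm4c/Kdm4a and -0.94 to -0.83 for Kdm2b/Kdm2a) and with the replicate block. Each member had at least 159 counts in every sample, and 3 samples per group limit the precision.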
